A study of Mus musculus with 27 samples.

Results

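The 7 genes Mcpt8, Prss34, Ms4a2, Cd200r3, Prg2, Epx and Ear6, which encode granule proteins and surface receptors of basophils and eosinophils, were followed through 27 RNA-sequencing libraries of mouse haematopoietic stem and progenitor cells (HSPCs). They were taken by gene symbol from an expression table of 24418 entries, and all 7 were among the 13350 genes that had an FPKM (fragments counted per kilobase of transcript and scaled to the library) of at least 1 in at least 3 libraries and were tested. The 7 genes were chosen by their FPKM in these same libraries, including those in Perinatal BM and E16.5 FL. The levels themselves, and every comparison with E16.5 FL or Perinatal BM, are therefore given as a description with no test of the 7 genes. Calls for markers of other cells in these comparisons are description too, as the marker lists were written with earlier results of these data known. All cells were HSPCs of C57BL/6 mice, and the 9 groups of 3 libraries each differed in age and source, with no treatment or mutation named in the labels. The groups were E12.5 PL, E12.5 FL and E16.5 FL (embryonic days), Perinatal BM, and 1w, 3w, 4w, 6w and 8w BM, where the number gives the age in weeks. FL commonly stands for fetal liver and BM for bone marrow; the labels leave PL unexplained. The sources used here do not give the surface markers of the purification, the sex of the mice, the perinatal day or whether animals were pooled. Nothing states that the libraries of a group came from separate animals, so each p-value reflects the spread among these libraries alone, which may be technical.

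Basophils and eosinophils are granulocytes that arise from progenitors in the fetal liver and bone marrow and that store toxic and proteolytic proteins in cytoplasmic granules. Basophils carry the high-affinity IgE receptor, whose crosslinking by antigen releases the granules, and mouse basophils make serine proteases of their own. Eosinophil granules hold a crystalloid core of major basic protein together with a peroxidase and ribonucleases, and eosinophil output is driven by interleukin-5. Factors of the GATA, C/EBP and STAT families take part in the development of both lineages. A sample of purified HSPCs is mostly made of immature cells, and in such bulk samples a change in the share of cells of a type and a change in RNA per cell cannot be told apart.

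Library sums of FPKM ran between 519810 and 763033 (up to 611034 once E12.5 PL is set aside), and 14241 to 16964 entries were above 0. The number of reads per library is unknown. From the steps between the lowest values, the relative depth lay between 0.674 and 1.55 of the median library. The correlation of log2 values across genes was 0.989 to 0.997 within a group and 0.853 to 0.898 for E12.5 PL with the other groups. As a check of the labelled cell type, the summed FPKM of 10 stem and progenitor markers was between 361 and 398 in E12.5 PL and between 700 and 970 in the other 24 libraries. The summed FPKM of 12 mast cell markers was between 1368 and 3684 in Perinatal BM and between 14.0 and 126 in the other groups, and that of 10 neutrophil markers reached 5950 in 1w BM.

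The 7 genes lie on 6 chromosomes (coordinates and strands from GENCODE M21 on GRCm38). The basophil protease genes are Mcpt8 at chr14:56082166-56085273 on the minus strand and Prss34 at chr17:25298394-25300165 on the plus strand, each with 5 exons in its longest model. Ms4a2 lies at chr19:11615523-11623719 on the minus strand and Cd200r3 at chr16:44943678-44981380 on the plus strand. The eosinophil genes are Prg2 at chr2:84980461-84983632 on the plus strand, Epx at chr11:87864000-87875536 on the minus strand and Ear6 at chr14:51853699-51854643 on the plus strand. Promoter windows (250 bases before to 50 after the start) of 6 of the 7 genes were matched in RefSeq (GRCm38.p6). These windows were searched on both strands for AGATAA, a form of the motif bound by GATA factors, for TTGCNNAA, a C/EBP form, and for TTCNNNGAA, a STAT form. AGATAA was present in 3 of the 6 windows (Prss34, Ms4a2 and Cd200r3), against 11.2% of 32851 RefSeq promoter windows of the same length. TTGCNNAA was present in 1 of the 6, that of Cd200r3, against 10.8% of all windows, and TTCNNNGAA in 0 of the 6, against 8.3%.

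The 250 bases before the start are shown for the 3 genes whose windows hold AGATAA and, beside them, for Epx, an eosinophil gene with no match to any of the motifs. Each is written 5′ to 3′ on the strand of its gene, and capitals mark the motif matches (AGATAA, or TTATCT where the match is on the other strand, and in Cd200r3 also TTCAGCAA, the match to TTGCNNAA on the other strand). They stand at chr17:25298144-25298393 (plus), chr19:11623720-11623969 (minus), chr16:44943428-44943677 (plus) and chr11:87875537-87875786 (minus).
Prss34: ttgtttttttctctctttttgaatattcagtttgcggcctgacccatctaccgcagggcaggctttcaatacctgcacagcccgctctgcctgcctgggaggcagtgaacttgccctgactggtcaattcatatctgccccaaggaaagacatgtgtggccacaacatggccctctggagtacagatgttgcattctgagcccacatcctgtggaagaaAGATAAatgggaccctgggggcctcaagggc
Ms4a2: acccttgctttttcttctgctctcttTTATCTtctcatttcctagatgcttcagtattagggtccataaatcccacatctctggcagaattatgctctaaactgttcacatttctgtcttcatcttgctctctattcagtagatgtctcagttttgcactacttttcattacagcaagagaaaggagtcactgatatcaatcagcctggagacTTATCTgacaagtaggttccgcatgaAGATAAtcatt
Cd200r3: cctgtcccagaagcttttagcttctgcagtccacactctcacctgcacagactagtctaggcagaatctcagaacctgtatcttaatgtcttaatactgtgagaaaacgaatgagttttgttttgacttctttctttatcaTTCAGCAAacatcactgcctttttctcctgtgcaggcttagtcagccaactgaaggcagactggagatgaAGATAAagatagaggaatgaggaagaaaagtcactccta
Epx: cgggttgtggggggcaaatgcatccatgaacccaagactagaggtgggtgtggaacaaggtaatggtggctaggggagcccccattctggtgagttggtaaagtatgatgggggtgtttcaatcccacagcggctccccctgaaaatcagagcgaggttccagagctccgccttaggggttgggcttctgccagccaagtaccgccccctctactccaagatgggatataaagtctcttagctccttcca
The AGATAA match of Prss34 begins at position -31 and that of Cd200r3 at -39 relative to the start. Ms4a2 holds 3 matches, at -224 and -37 on the other strand and at -11 on its own strand. A match is a description of the letters in the window, and no match says nothing about a factor.

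Mcpt8 and Prss34, the basophil granule proteases, were at or near 0 at E12.5, low in E16.5 FL, and higher in every BM library. In 3w BM Prss34 was still low, at 1.90 to 2.72 FPKM. Mcpt8 was listed at 0 in all 3 E12.5 PL libraries, at 0, 0.474 and 0.207 FPKM in E12.5 FL, and at 1.44, 0.967 and 1.64 in E16.5 FL. It was at 24.8, 13.7 and 23.2 FPKM in Perinatal BM, 14.2, 16.2 and 26.8 in 1w BM, and 12.03, 14.97 and 12.2 in 3w BM. It was at 6.33, 11.6 and 10.4 FPKM in 4w BM, 20.9, 15.4 and 17.1 in 6w BM, and 14.1, 13.9 and 13.6 in 8w BM. Every BM library stood above every embryonic library, and the lowest BM library was 1 of 4w BM. By mean FPKM the order was Perinatal BM, 1w BM, 6w BM, 8w BM, 3w BM, 4w BM, E16.5 FL, E12.5 FL and E12.5 PL. The libraries of neighbours in this order overlapped between Perinatal BM and 1w BM, between 1w BM and 6w BM, between 8w BM and 3w BM, and for E12.5 FL with E12.5 PL.

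Prss34 was highest in Perinatal BM. It was at 0.373, 0 and 0 FPKM in E12.5 PL, listed at 0 in all 3 E12.5 FL libraries, and at 1.27, 0.515 and 1.31 in E16.5 FL. It was at 22.4, 16.49 and 26.5 FPKM in Perinatal BM, 9.28, 8.98 and 13.3 in 1w BM, and 1.90, 2.48 and 2.72 in 3w BM. It was at 5.11, 4.35 and 5.73 FPKM in 4w BM, 10.2, 8.50 and 6.80 in 6w BM, and 3.799, 3.11 and 7.58 in 8w BM. All 3 Perinatal BM libraries stood above every other library, and 3w BM was lowest of the BM groups. By mean the order was Perinatal BM, 1w BM, 6w BM, 4w BM, 8w BM, 3w BM, E16.5 FL, E12.5 PL and E12.5 FL. Libraries of neighbours overlapped between 1w BM and 6w BM, between 4w BM and 8w BM, and between E12.5 PL and E12.5 FL, and at no other step. Perinatal BM held 40.2% of the sum of the 9 group means of Prss34, against 21.6% for Mcpt8.

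**Figure D1:**
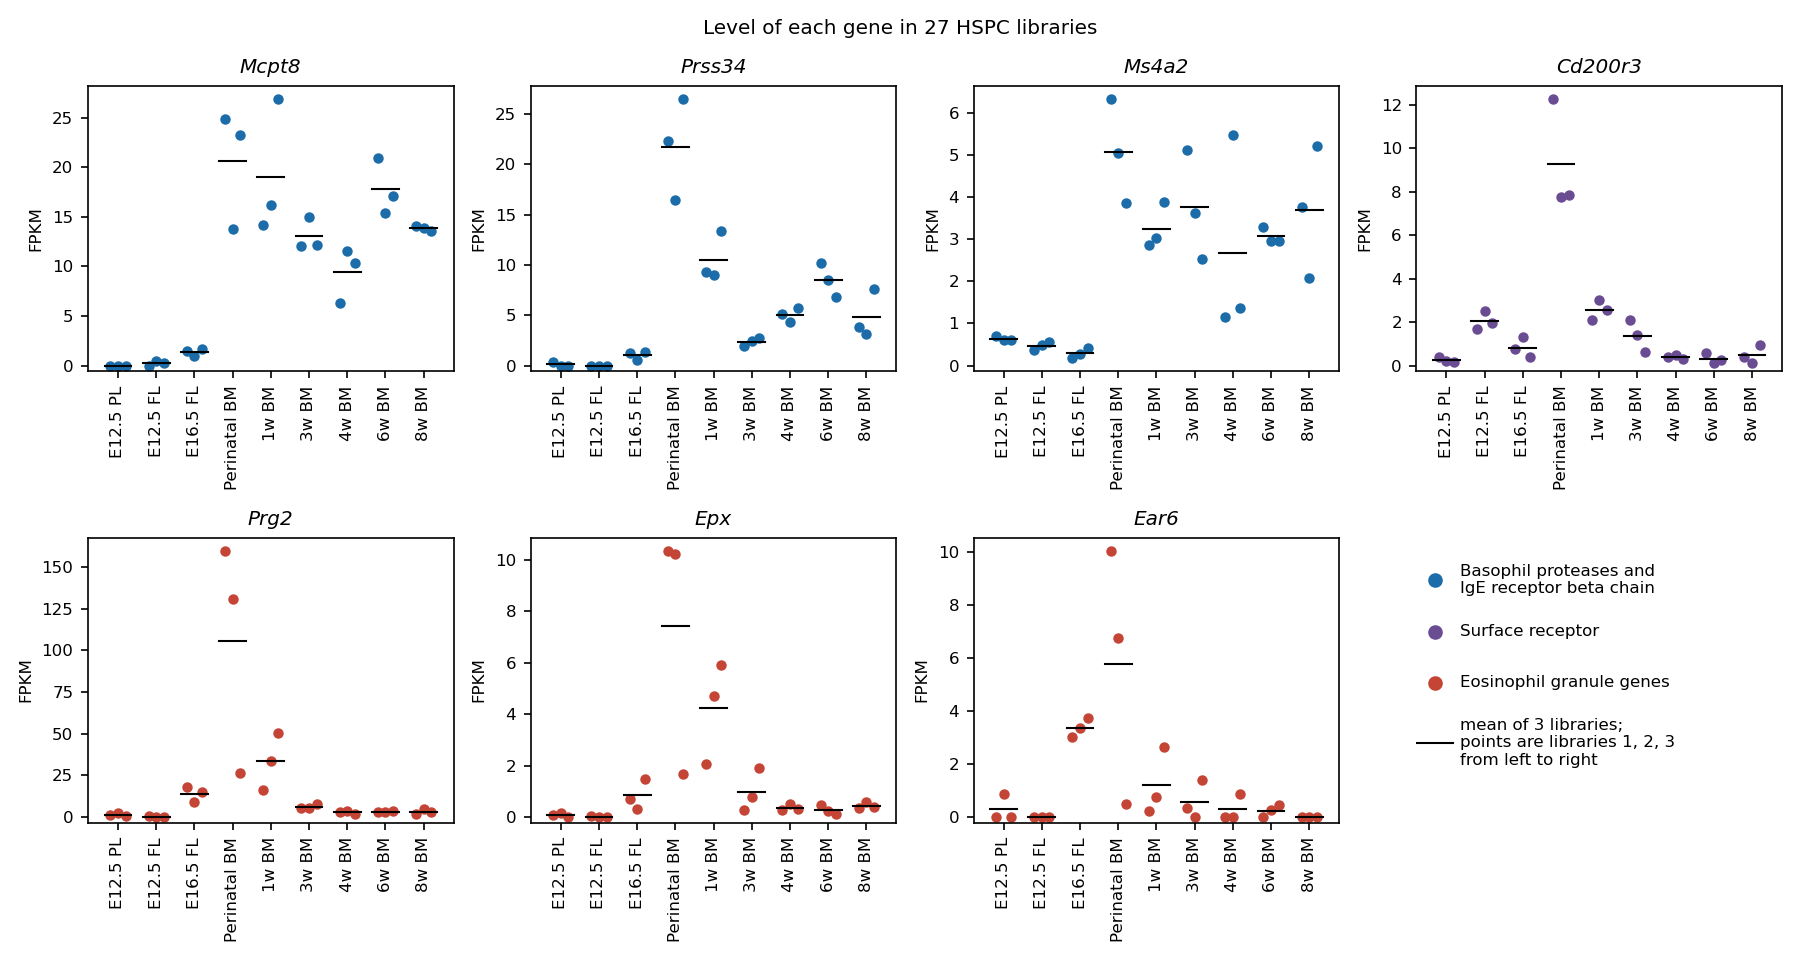
FPKM of the 7 genes (vertical axes, a linear scale of its own for each gene) in the 9 groups, ordered by age, with 1 dot per library and a bar at the mean of 3 libraries. All 7 genes have their highest mean in Perinatal BM, at 9.29, 105.8, 7.41 and 5.77 FPKM for Cd200r3, Prg2, Epx and Ear6. The means of the 6 BM groups lie between 9.42 and 20.6 FPKM for Mcpt8 and between 2.66 and 5.07 FPKM for Ms4a2.

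Ms4a2 encodes the beta chain of the high-affinity IgE receptor, which amplifies its signal in basophils and mast cells. Its level was at 0.70, 0.61 and 0.61 FPKM in E12.5 PL, 0.36, 0.48 and 0.55 in E12.5 FL, and 0.18, 0.28 and 0.41 in E16.5 FL. It was at 6.32, 5.04 and 3.85 FPKM in Perinatal BM, 2.86, 3.01 and 3.87 in 1w BM, and 5.11, 3.63 and 2.52 in 3w BM. It was at 1.15, 5.46 and 1.37 FPKM in 4w BM, 3.30, 2.95 and 2.96 in 6w BM, and 3.76, 2.07 and 5.20 in 8w BM. All embryonic libraries were below 1 FPKM and all BM libraries above it, and the libraries of BM groups next to each other in the order of means all overlapped. Library 2 of 4w BM stood apart from the others of its group, and the markers of several other cell types, but not of B cells, were also highest there. The summed mast cell markers were 75.9 FPKM in library 2, against 46.2 and 51.2 in libraries 1 and 3, and the summed neutrophil markers 2769 FPKM, against 913 and 987. The macrophage and monocyte sum was 180 FPKM, against 72.6 and 93.8, the megakaryocyte sum 130 FPKM, against 64.0 and 69.6, and the erythroid sum 91.0 FPKM, against 61.4 and 64.1. The B cell sum was 21.3 FPKM in library 2, against 20.8 and 24.7 in libraries 1 and 3. The stem and progenitor sum was lowest in library 2, at 794 FPKM, against 944 and 960. The part of these cells in the result was not tested. Of the exonic 50-base windows of Ms4a2, 2.1% also occur in Ms4a4b, so a small share of its reads may be split.

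The other chains of this receptor followed different courses. Fcer1a, the IgE-binding alpha chain, had a mean of 6.24 ± 2.98 FPKM in Perinatal BM (SD, n = 3) and at most 0.757 in any other group, and it was listed at 0 in all libraries of E12.5 FL and of 3w BM. Fcer1g, the gamma chain shared with other Fc receptors, was expressed throughout, with group means between 31.9 FPKM in E12.5 PL and 102 FPKM in Perinatal BM. In 3w BM the beta chain was measured at 2.52 to 5.11 FPKM while the alpha chain was listed at 0.

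Cd200r3, an activating receptor of the CD200 receptor family found on mouse basophils and mast cells, had a course of its own. It was at 0.38, 0.21 and 0.14 FPKM in E12.5 PL, 1.70, 2.50 and 1.95 in E12.5 FL, and 0.74, 1.31 and 0.40 in E16.5 FL. It was at 12.3, 7.76 and 7.86 FPKM in Perinatal BM, 2.11, 2.99 and 2.57 in 1w BM, and 2.09, 1.39 and 0.63 in 3w BM. It was at 0.38, 0.50 and 0.29 FPKM in 4w BM, 0.57, 0.11 and 0.27 in 6w BM, and 0.37, 0.10 and 0.96 in 8w BM. It was the 1 gene of the 7 that was higher in every E12.5 FL library than in every library of 4w, 6w and 8w BM. Perinatal BM overlapped with no other group, and every other pair of neighbours in the order of means (1w BM, E12.5 FL, 3w BM, E16.5 FL, 8w BM, 4w BM, 6w BM, E12.5 PL) overlapped. Cd200r4, a neighbouring activating member of the family, had means of 2.90 FPKM in E12.5 FL, 4.52 in Perinatal BM, 2.76 in 1w BM and 0.487 in 8w BM. Cd200r1, the inhibitory receptor of the family, was highest in E12.5 FL at a mean of 10.97 FPKM and had 4.55 in Perinatal BM. Of the exonic 50-base windows of Cd200r3, 2.69% also occur in other genes, none of them in the Cd200r family.

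Prg2, Epx and Ear6 encode proteins of the eosinophil granule, and all 3 were present in E16.5 FL, highest on average in Perinatal BM and low in older BM. Prg2 encodes major basic protein. It was at 1.12, 2.44 and 0.692 FPKM in E12.5 PL, 0.395, 0.184 and 0.289 in E12.5 FL, and 17.8, 8.77 and 15.0 in E16.5 FL. It was at 160, 131 and 26.5 FPKM in Perinatal BM, 16.2, 33.7 and 50.5 in 1w BM, and 5.44, 5.43 and 7.65 in 3w BM. It was at 2.71, 3.69 and 2.06 FPKM in 4w BM, 2.94, 3.08 and 3.85 in 6w BM, and 1.67, 4.70 and 3.17 in 8w BM. The 3 libraries of Perinatal BM spanned a wider range than those of any other group, and library 3 lay inside the range of 1w BM. By mean the order was Perinatal BM, 1w BM, E16.5 FL, 3w BM, 6w BM, 8w BM, 4w BM, E12.5 PL and E12.5 FL. Libraries of neighbours did not overlap between E16.5 FL and 3w BM, between 3w BM and 6w BM, and between E12.5 PL and E12.5 FL, and overlapped at the other steps.

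Epx encodes eosinophil peroxidase, which makes oxidants from hydrogen peroxide and halides. It was at 0.0631, 0.143 and 0 FPKM in E12.5 PL, 0.0279, 0 and 0 in E12.5 FL, and 0.718, 0.318 and 1.49 in E16.5 FL. It was at 10.3, 10.2 and 1.67 FPKM in Perinatal BM, 2.07, 4.71 and 5.91 in 1w BM, and 0.265, 0.761 and 1.89 in 3w BM. The order of means was Perinatal BM, 1w BM, 3w BM, E16.5 FL, 8w BM, 4w BM, 6w BM, E12.5 PL and E12.5 FL, and of these neighbours only 1w BM and 3w BM did not overlap. It was below 1 FPKM in every library of 4w, 6w and 8w BM, between 0.0991 and 0.575. Epx passed the minimum of 1 FPKM in 8 libraries only, of E16.5 FL, Perinatal BM, 1w BM and 3w BM.

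Ear6, one of the eosinophil-associated ribonucleases, was high already in E16.5 FL. It was at 0, 0.858 and 0 FPKM in E12.5 PL, listed at 0 in all 3 E12.5 FL libraries, and at 3.02, 3.34 and 3.72 in E16.5 FL. It was at 10.04, 6.76 and 0.505 FPKM in Perinatal BM, 0.234, 0.755 and 2.65 in 1w BM, and 0.347, 0 and 1.38 in 3w BM. It was at 5.56e-07, 0 and 0.873 FPKM in 4w BM, at 0, 0.264 and 0.438 in 6w BM, and listed at 0 in all 3 libraries of 8w BM. All 3 E16.5 FL libraries stood above every library of 1w BM and older, and of the neighbours in its order of means (Perinatal BM, E16.5 FL, 1w BM, 3w BM, 4w BM, E12.5 PL, 6w BM, with E12.5 FL and 8w BM at 0) E16.5 FL and 1w BM alone did not overlap. Ear6 shares 0.954% of its 50-base windows with Ear1, Ear2 and Ear10, so its level is uncertain by the reads that could be split among them.

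The 3 libraries of Perinatal BM did not carry these genes alike. For Prg2, Epx and Ear6, library 3 held 16.6%, 16.1% and 5.03% of the level of library 1, and further eosinophil granule genes were low there as well, with 25.3% of library 1 for Prg3, 10.8% of library 1 for Ear1 and 22.4% of library 2 for Ear2. The basophil proteases were not low in library 3, which held 93.6% of the highest level for Mcpt8 and the highest level for Prss34. Library 2 was lowest for both proteases and also for the mast cell genes Cpa3 (carboxypeptidase A), Cma1 (chymase) and Tpsb2 (tryptase), which were at 36.1%, 32.8% and 40.8% of their level in library 3. The summed mast cell markers were 3008, 1368 and 3684 FPKM in libraries 1, 2 and 3, with all 12 markers at a mean of at least 1 FPKM, and the summed neutrophil markers were 3091, 3068 and 1443 FPKM. The part of these cells in the levels of the 7 genes was not tested.

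**Figure D2:**
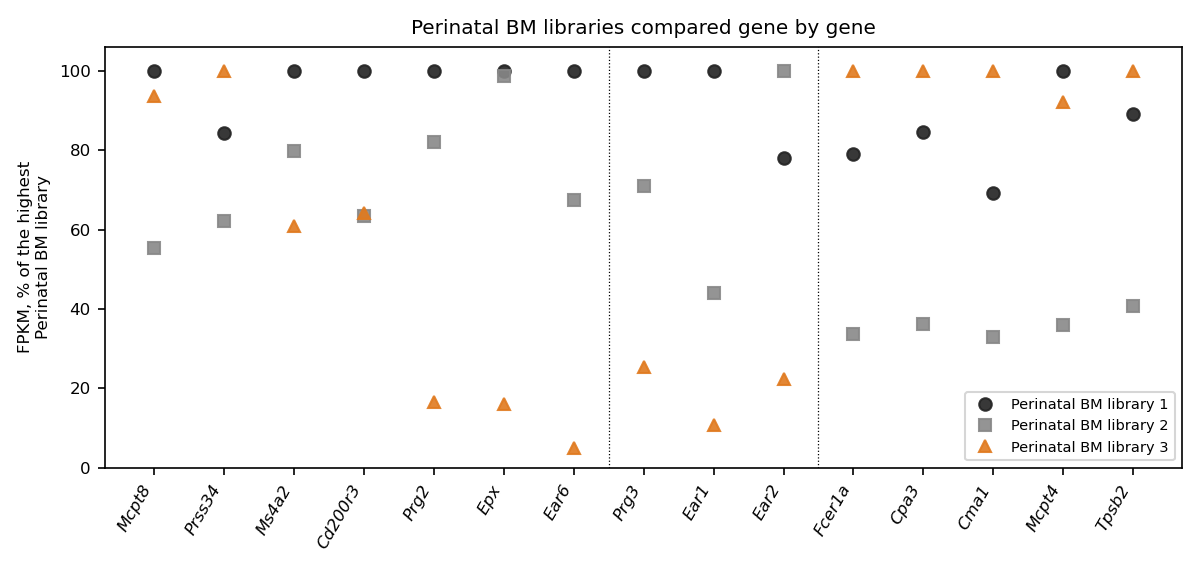
Levels in the 3 Perinatal BM libraries as a percentage of the highest of the 3 (vertical axis), with 1 mark per library. Dotted lines separate the 7 genes, 3 further eosinophil granule genes, and Fcer1a together with 4 mast cell genes. Library 3 is lowest for Prg2, Epx, Ear6, Prg3, Ear1 and Ear2, at 5.03% to 25.3%, and for Ms4a2 at 60.9%, and is highest for Prss34, Cpa3, Cma1, Tpsb2 and Fcer1a.

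Between Perinatal BM and E16.5 FL, the libraries did not overlap for 6 of the 7 genes, each higher in Perinatal BM, where 18.7% of all genes tested were higher with no overlap. This contrast was known when the genes were chosen, so nothing is read from that count. Mean levels in Perinatal BM were 15.3 times those in E16.5 FL for Mcpt8, 21.1 times for Prss34, 17.7 times for Ms4a2 and 11.4 times for Cd200r3. They were 7.63 times for Prg2, 8.80 times for Epx and 1.72 times for Ear6, which overlapped. Left out after its values were seen, library 3 of Perinatal BM moved the ratio to 10.5 for Prg2, 12.2 for Epx and 2.50 for Ear6, and library 3 alone gave 1.91, 1.98 and 0.150. The ratio of the other 4 genes stayed between 12.2 and 19.8 without that library. All 12 mast cell markers were higher in Perinatal BM than in E16.5 FL (limma, median log2 difference 4.81, against 0 over all genes) and all 8 B cell markers lower. The marker lists were written with earlier results known, so nothing is read from these calls, and the part of these cells was not tested.

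Between E16.5 FL and E12.5 FL, 5 of the 7 genes were higher in E16.5 FL with no overlap, where 28.4% of all genes were, and Cd200r3 was lower with no overlap, where 24.5% were. Ms4a2 overlapped, with a mean of 0.287 FPKM in E16.5 FL and 0.463 FPKM in E12.5 FL. Prg2 had means of 13.9 ± 4.62 FPKM in E16.5 FL and 0.289 ± 0.105 FPKM in E12.5 FL (SD, n = 3 each). Markers of other cells were higher in E16.5 FL too (limma), 7 of 9 for neutrophils (median log2 difference 4.49, against 0.011 over all genes), 8 of 8 for B cells (median 3.28), 7 of 7 for erythroid cells and 6 of 9 for macrophages and monocytes, and their part was not tested. The mast cell markers Cma1, Mcpt4 and Tpsb2 were higher and Cpa3 lower. Between 1w BM and Perinatal BM, Prss34 and Cd200r3 were lower in 1w BM with no overlap, where 16.8% of all genes were, and the other 5 genes overlapped. All 12 mast cell markers were lower in 1w BM than in Perinatal BM (limma, median log2 difference -3.95), and their part was not tested. The marker lists were written with earlier results known, so nothing is read from these marker calls, nor from those between E16.5 FL and E12.5 FL.

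From E16.5 FL to 6w BM, the mean ratio of the eosinophil to the basophil granule genes was lower at each older age, and in 8w BM it was near that of 6w BM, at 0.197 in 8w BM and 0.148 in 6w BM. At E12.5 both sums were near 0, with 0.692 to 3.44 FPKM for the eosinophil genes and 0 to 0.373 FPKM for the basophil proteases in E12.5 PL, and 0.184 to 0.423 FPKM and 0 to 0.474 FPKM in E12.5 FL, so no ratio is given there. The summed FPKM of Prg2, Epx and Ear6 divided by that of Mcpt8 and Prss34 was 7.95, 8.39 and 6.85 in E16.5 FL, 3.82, 4.90 and 0.577 in Perinatal BM, and 0.787, 1.56 and 1.47 in 1w BM. It was 0.435, 0.355 and 0.732 in 3w BM, 0.260, 0.264 and 0.202 in 4w BM, 0.110, 0.150 and 0.183 in 6w BM, and 0.114, 0.310 and 0.168 in 8w BM. All E16.5 FL libraries lay above all BM libraries, and all libraries of 4w, 6w and 8w BM lay below those of 3w BM. The summed basophil proteases averaged 18.7 ± 2.21 FPKM in 8w BM, against 29.6 ± 9.21 FPKM in 1w BM. The summed eosinophil genes averaged 3.63 ± 1.62 FPKM in 8w BM, against 38.9 ± 20.3 FPKM in 1w BM (SD, n = 3 each). Prg2 made up most of this sum, so the ratio mainly follows Prg2. Its mean was 13.9 of 18.1 FPKM in E16.5 FL, 105.8 of 119 FPKM in Perinatal BM, 33.4 of 38.9 FPKM in 1w BM and 3.18 of 3.63 FPKM in 8w BM.

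**Figure D3:**
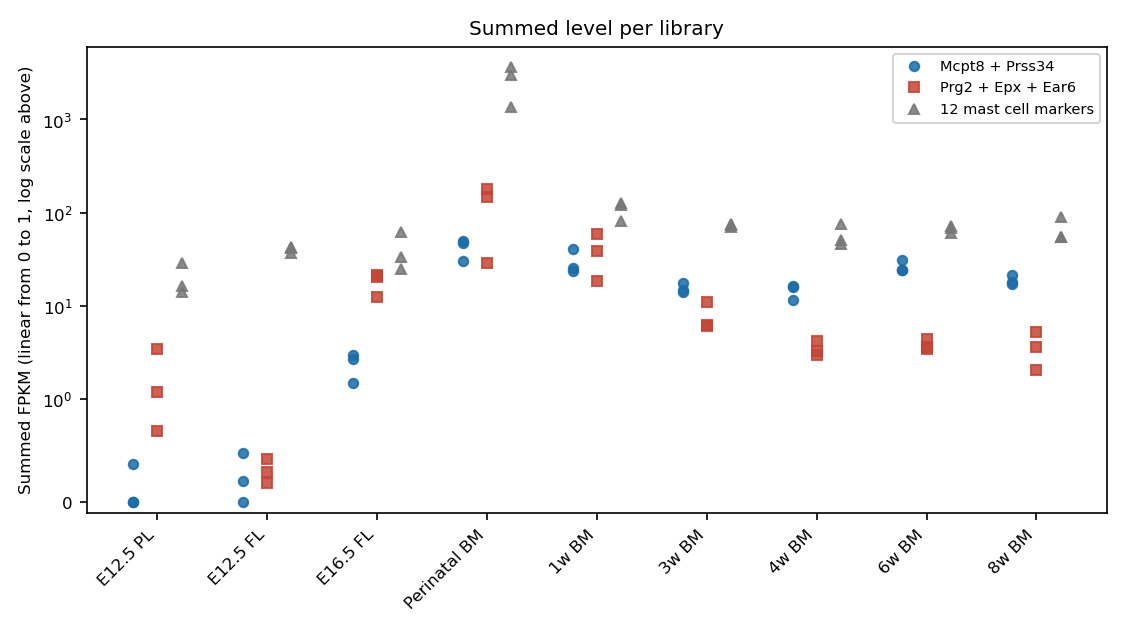
Summed FPKM per library (vertical axis, linear near 0 and logarithmic above) of Mcpt8 with Prss34, of Prg2, Epx and Ear6, and of 12 mast cell markers, in the 9 groups. The mast cell markers stand between 1368 and 3684 FPKM in Perinatal BM and between 14.0 and 126 FPKM elsewhere, and the eosinophil sum lies below the basophil sum in every library of 3w BM and later.

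At E12.5, FL was compared with PL. Cd200r3 rose in E12.5 FL, with a mean of 2.05 ± 0.408 FPKM, against 0.240 ± 0.122 FPKM in E12.5 PL (SD, n = 3 each), a log2 difference of 1.30 on the log2(FPKM + 1) scale, which understates changes at low levels (SE 0.228, limma, adjusted p = 2.18e-05). It was the 1 member called of 7, where 33.2% of all genes tested were called higher and 41% lower. No library of either group reached 1 FPKM for Mcpt8, Prss34, Ms4a2, Epx or Ear6, which were tested because of higher levels elsewhere. Few calls were thus favoured for them, and nothing is read from this count. For Cd200r3 every E12.5 FL library and no E12.5 PL library reached 1 FPKM, so its rise is partly set by the filter. Of the 3 tested Cd200r family genes all 3 rose in E12.5 FL, Cd200r1 by 2.695 and Cd200r4 by 1.54 on the log2 scale (limma, adjusted p = 6.05e-11 and 5.63e-09). Among 11 receptor genes of basophils and eosinophils 4 rose and 4 fell in E12.5 FL. Il5ra, the interleukin-5 receptor alpha chain, was among those that rose, with a mean of 1.58 FPKM in E12.5 FL and 0.0880 FPKM in E12.5 PL (adjusted p = 9.95e-11), while the granule genes Prg2, Epx and Ear6 were not called. The mean of Il5ra was highest in E12.5 FL and below the filter minimum of 1 FPKM in E12.5 PL. The filter thus favoured its rise, and nothing is read from that call. Besides Cd200r3, the libraries of both groups did not overlap for Ms4a2, at 0.360 to 0.546 FPKM in E12.5 FL and 0.607 to 0.699 FPKM in E12.5 PL, nor for Prg2, at 0.184 to 0.395 FPKM in E12.5 FL and 0.692 to 2.44 FPKM in E12.5 PL (log2 difference -0.85, limma, adjusted p = 0.108). The fit of these 6 libraries alone called it lower (adjusted p = 0.016), and a pseudocount of 0.1 called it lower and Mcpt8 higher. Of the 12 mast cell markers 9, Cma1, Mcpt4 and Tpsb2 among them, were listed at 0 in all E12.5 FL libraries, and Cpa3 and Slc18a2 rose there while Gzmb fell. Of 9 neutrophil markers 5 rose (Ctsg, Elane, Ltf, Mpo and Prtn3), and of 6 megakaryocyte markers Gp9 rose and 4 fell (Gp1bb, Pf4, Ppbp and Vwf), and their part was not tested.

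Against E12.5 FL, 5 of the 7 genes rose in 1w BM, where 20.6% of all genes tested were called higher, and 0 fell, where 18.3% were called lower. No E12.5 FL library reached the filter minimum of 1 FPKM for any of the 5, which were tested because of higher levels elsewhere, so the filter favoured a rise over E12.5 FL and nothing is read from this count. Mcpt8 was higher by 4.00 on the log2 scale (SE 0.225, limma, adjusted p = 4.81e-12), Ms4a2 by 1.53 (adjusted p = 0.00023), Prg2 by 4.60 (adjusted p = 7.32e-08) and Epx by 2.29 (adjusted p = 6.86e-05). Prss34 also rose (adjusted p = 7.28e-11), with no fold given because it was listed at 0 in every E12.5 FL library. Cd200r3 had means of 2.56 FPKM in 1w BM and 2.05 FPKM in E12.5 FL and was not called (log2 difference 0.22, 95% interval -0.25 to 0.69). Ear6 was not called at an adjusted p of 0.119, and was called with a pseudocount of 0.1 (adjusted p = 0.0244). All 9 tested neutrophil markers (median log2 difference 5.02), 7 of 12 mast cell, 6 of 9 macrophage and monocyte, 5 of 7 erythroid and 4 of 6 megakaryocyte markers rose in 1w BM as well, and their part in the rise of the 7 genes was not tested.

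Against the same E12.5 FL libraries, 4 of the 7 genes rose in 8w BM, where 26.5% of all genes were called higher, and 1 fell, where 24.3% were called lower. The 4 that rose are among those same 5 genes, so nothing is read from their count here either. Mcpt8 was higher by 3.62 and Ms4a2 by 1.62 on the log2 scale (limma, adjusted p = 9.81e-12 and 7.22e-05), and Prss34 rose as well (adjusted p = 8.46e-09). Prg2 was higher by 1.63 (adjusted p = 0.00577). Cd200r3 fell in 8w BM by 1.08 on the log2 scale, with means of 0.477 FPKM in 8w BM and 2.05 FPKM in E12.5 FL (adjusted p = 0.000411). Every E12.5 FL library and no 8w BM library reached 1 FPKM for Cd200r3, so its fall is partly set by the filter. Cd200r1 and Cd200r4 fell as well, so that all 3 tested family genes did. Epx was not called (log2 difference 0.52, adjusted p = 0.29) but was called with a pseudocount of 0.1 and in the fit of these 6 libraries, and Ear6 was listed at 0 in every library of both groups. In 8w BM all 9 macrophage and monocyte markers rose (median log2 difference 3.55), as did 5 of 7 erythroid and 4 of 6 megakaryocyte markers. Of the 12 mast cell markers 2 rose, Gzmb and Slc18a2, and of 9 neutrophil markers 6 rose and 1, Ltf, fell. The part of these markers was not tested.

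Between 1 and 8 weeks in BM, Prg2, Epx, Cd200r3 and Prss34 fell, and Mcpt8, Ms4a2 and Ear6 were not called. In 8w BM against 1w BM, 4 of the 7 genes fell, where 8.39% of all genes tested were called lower, and 0 rose, where 10.3% were called higher. No 8w BM library reached the filter minimum of 1 FPKM for Epx or Cd200r3, which were tested because of higher levels elsewhere. The filter thus favoured a fall of these genes, and nothing is read from this count. Prg2 fell by 2.97 on the log2 scale, with means of 3.18 ± 1.52 FPKM in 8w BM and 33.4 ± 17.2 FPKM in 1w BM (SD, n = 3 each, limma, adjusted p = 8.75e-05). Epx fell by 1.78 (adjusted p = 0.00238), Cd200r3 by 1.30 (adjusted p = 0.000282) and Prss34 by 1.04 (adjusted p = 0.00269). The Prss34 call was lost with a pseudocount of 0.1 (adjusted p = 0.0616) and in the fit of these 6 libraries (adjusted p = 0.0794). The difference of Mcpt8 was -0.38 with a 95% interval of -0.85 to 0.08, and that of Ms4a2 was 0.09 with an interval of -0.52 to 0.69. Ear6 was listed at 0 in 8w BM and was not called (adjusted p = 0.174), but was called with a pseudocount of 0.1 (adjusted p = 0.0459).

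Other markers moved in the same comparison. In 8w BM, 5 of 9 tested neutrophil markers (Camp, Ltf, Ngp, S100a8 and S100a9, genes of later granulocyte maturation) fell, and 4 of 12 mast cell markers (Cma1, Mcpt4, Tpsab1 and Tpsb2) fell while Slc18a2, a monoamine transporter, rose. The summed neutrophil markers ranged from 2542 to 3025 FPKM in 8w BM and from 3814 to 5950 FPKM in 1w BM, and the summed mast cell markers from 54.6 to 90.7 FPKM in 8w BM and from 81.2 to 126 FPKM in 1w BM. In 1w BM the same library, 3, was highest for 6 of the 7 genes, all but Cd200r3, and for the neutrophil, mast cell (126 FPKM) and macrophage and monocyte (289 FPKM) sums. Of the macrophage and monocyte markers 7 of 9 rose in 8w BM, of the megakaryocyte markers 4 of 6 rose and Gp9 fell, of the erythroid markers Ermap alone rose of 7, of the B cell markers Cd79a and Ebf1 fell of 8, and of the T and NK cell markers Cd4 fell of 3 tested. The part of any of these in the change of the 7 genes was not tested.

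**Figure D4:**
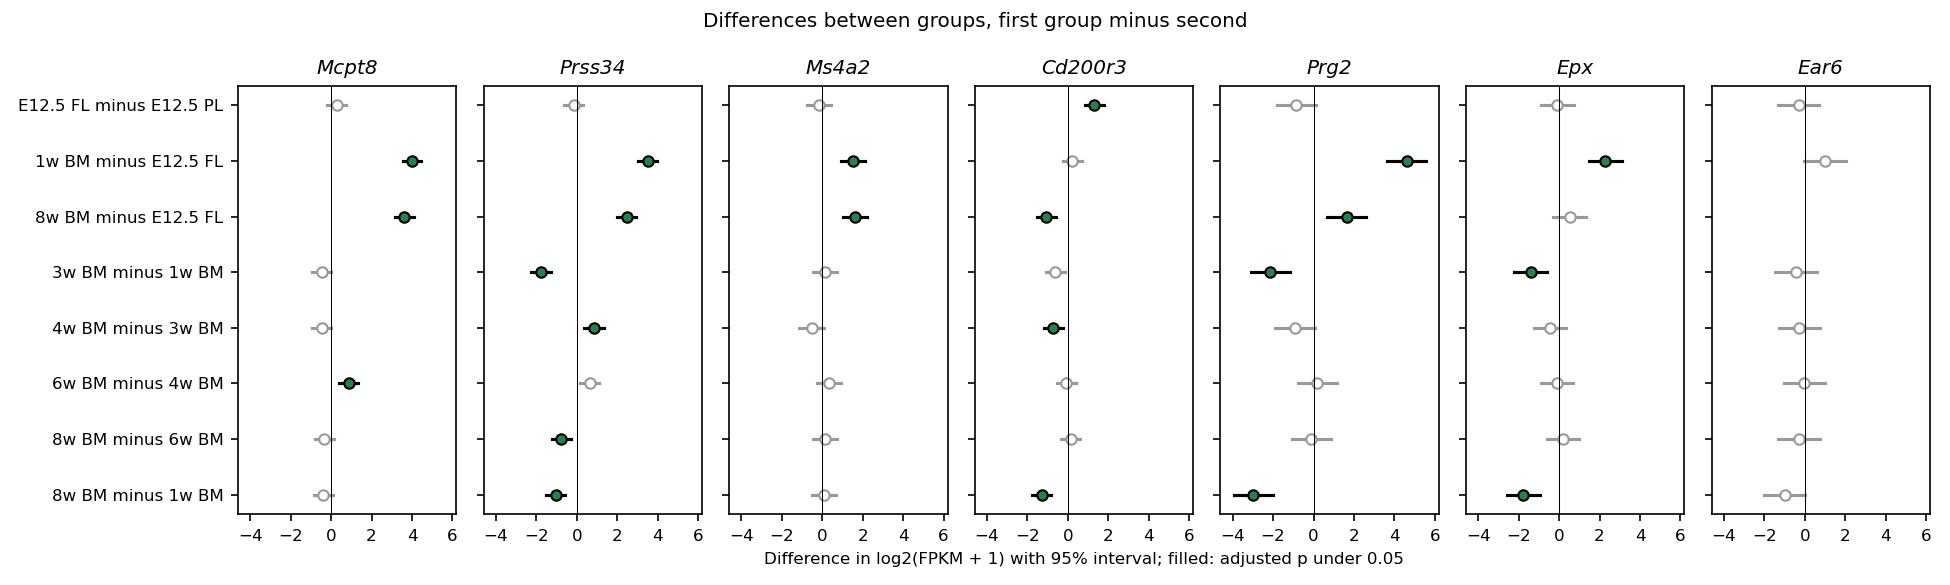
Differences in log2(FPKM + 1) (horizontal axis) with 95% intervals from limma, in 1 panel per gene and 1 line per pair of groups, named at the left. Filled marks are called at an adjusted p under 0.05, and Ear6 has no mark in 8w BM against E12.5 FL, where both groups are listed at 0. Prg2, Epx, Cd200r3 and Prss34 lie below 0 in 8w BM against 1w BM, at -2.97, -1.78, -1.30 and -1.04.

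Of the member calls at the steps between BM ages from 1w BM on, each call after 3w BM was lost when some single library was left out, as was that of Epx at the first step. The 7 genes were chosen by their FPKM in these same libraries, so nothing is read from the number called at any step. Epx was below 1 FPKM in libraries 1 and 2 of 3w BM, and Cd200r3 in every 4w BM library. Their falls at these steps are thus partly set by the filter. In 3w BM against 1w BM, Prg2 fell by 2.14 (limma, adjusted p = 0.0049), Prss34 by 1.76 (adjusted p = 2.84e-05) and Epx by 1.41 (adjusted p = 0.0232), 3 of 7 members where 4.76% of all genes were called lower, and 0 members rose where 5.69% were called higher. The Epx call was lost without library 1 or 2 of 3w BM (adjusted p = 0.125 and 0.0682), without library 2 or 3 of 1w BM (adjusted p = 0.0769 and 0.113) and in the fit of these 6 libraries (adjusted p = 0.0947). Cd200r3 had a log2 difference of -0.63 (adjusted p = 0.0828) and was called lower without library 1 of 3w BM (adjusted p = 0.0397). In this step 5 of 9 neutrophil markers (Camp, Ltf, Ngp, S100a8 and S100a9) and 5 of 12 mast cell markers (Cma1, Mcpt4, Mrgprb1, Tpsab1 and Tpsb2) fell too. The macrophage markers C1qa, C1qb and C1qc and the B cell markers Igll1, Vpreb1 and Vpreb3 rose, and the part of all these was not tested.

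In 4w BM against 3w BM, Prss34 rose by 0.85 (limma, adjusted p = 0.0242) and Cd200r3 fell by 0.72 (adjusted p = 0.0488), where 4.72% of all genes were called higher and 4.56% lower. The Prss34 call was lost without library 1 or 3 of 4w BM or library 1 of 3w BM (adjusted p = 0.0856, 0.103 and 0.118). The Cd200r3 call was lost without any 1 of the 4w BM libraries (adjusted p = 0.127, 0.0539 and 0.16), without library 1 or 2 of 3w BM (adjusted p = 0.27 and 0.114), and with the replicate number as a block (adjusted p = 0.0523). Ms4a2 was not called in this step (log2 difference -0.53, adjusted p = 0.275), and was called lower without library 2 of 4w BM (log2 difference -1.04, adjusted p = 0.00521). In this step 5 of 9 neutrophil markers (Ctsg, Elane, Mpo, Prtn3 and S100a8) fell, as did Ccr2 and Ly6c2 of 9 macrophage and monocyte markers, and 0 of 12 mast cell markers were called. Their part was not tested.

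In 6w BM against 4w BM, Mcpt8 rose by 0.88 (limma, adjusted p = 0.028), where 2.59% of all genes were called higher and 1.35% lower. That call was lost when any library of these groups other than library 2 of 4w BM was left out, at adjusted p between 0.0509 and 0.18, and without library 2 of 4w BM Ms4a2 was called higher too (log2 difference 0.85, adjusted p = 0.0328). In 8w BM against 6w BM, Prss34 fell by 0.77 (limma, adjusted p = 0.0431), where 5.21% of all genes were called lower and 2.97% higher. It was not called without library 1 or 2 of 8w BM (adjusted p = 0.171 and 0.243) or library 1 or 2 of 6w BM (adjusted p = 0.141 and 0.137). In 8w BM against 6w BM 7 of 9 macrophage and monocyte markers rose and 0 of the 12 mast cell and 9 neutrophil markers were called, and their part was not tested. These BM comparisons share libraries with their neighbours and with the comparison of 8w BM and 1w BM.

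Genes that act around the 7 members were read from lists written with earlier results of these data known. Of 6 tested eosinophil granule genes, the members among them, 4 (Prg2, Epx, Prg3 and Ear2) rose in 1w BM against E12.5 FL, where 20.6% of all genes were called higher. In 8w BM against 1w BM 2 of the 6 fell, where 8.39% of all genes were called lower (median log2 difference -1.04, against 0 over all genes). These 2 were Prg2 and Epx, members already counted above, so nothing further is read from these counts. Ear2, a ribonuclease of the same family as Ear6, had means of 6.76 FPKM in Perinatal BM, 1.80 in 1w BM, 1.29 in 3w BM, 0.871 in 4w BM, 1.10 in 6w BM and 2.19 in 8w BM, and Ear10 was listed at 0 in all 27 libraries. Hdc, which makes histamine, had a mean of 289 FPKM in Perinatal BM, and it fell to 10.1 FPKM in 8w BM, against 22.7 FPKM in 1w BM (log2 difference -1.06, limma, adjusted p = 0.0259). Of the 10 genes of type 2 cytokines and mediators, Hdc and Ptgs1, a prostaglandin synthase, were those called in that comparison.

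Some receptor genes were called between BM ages. Ccr3, the eotaxin receptor of eosinophils and basophils, rose in 8w BM, with a mean of 2.37 ± 0.814 FPKM, against 0.0306 ± 0.0531 FPKM in 1w BM (SD, n = 3 each, log2 difference 1.68, limma, adjusted p = 1.77e-08). It was also higher in 8w BM than in 6w BM, where its mean was 0.619 FPKM (log2 difference 1.04, adjusted p = 4.94e-05). The mean of Ccr3 was highest in 8w BM and below the filter minimum of 1 FPKM in 1w and 6w BM. The filter thus favoured both rises of Ccr3, and nothing is read from them. Il5ra fell to a mean of 0.131 FPKM in 8w BM, against 1.58 FPKM in E12.5 FL (log2 difference -1.18, adjusted p = 1.56e-09), and was not called in 8w BM against 1w BM. As E12.5 FL was its highest group, the filter favoured that fall, and nothing is read from it. Il3ra and Csf2rb, chains of the interleukin-3 receptor, rose in 1w BM against E12.5 FL, by 1.03 and 0.94 on the log2 scale (adjusted p = 2.11e-06 and 0.000437). Of 11 tested receptor genes 2, Ccr3 and Il18r1, rose in 8w BM against 1w BM and 0 fell, where 10.3% of all genes were called higher and 8.39% lower.

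Among 16 transcription factors of granulocytes and mast cells, 6 rose (Cebpa, Gata1, Irf8, Stat5a, Stat5b and Zfpm1) and 1 fell in 8w BM against 1w BM. Of all genes tested, 10.3% were called higher and 8.39% lower there. The factor that fell was Cebpe, which drives late granulocyte maturation, with means of 2.46 ± 0.752 FPKM in 8w BM and 13.6 ± 4.06 FPKM in 1w BM (SD, n = 3 each, log2 difference -2.07, limma, adjusted p = 2.86e-05). Gata1 had means of 19.2 FPKM in 8w BM and 11.8 FPKM in 1w BM (log2 difference 0.64, adjusted p = 0.0281), and Cebpa had 67.0 FPKM in 8w BM and 42.6 FPKM in 1w BM (log2 difference 0.65, adjusted p = 0.00428). Gata2, which acts in basophil and mast cell progenitors, was not called in that comparison, with means of 83.8 FPKM in 8w BM and 68.2 FPKM in 1w BM (adjusted p = 0.107).

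**Figure D5:**
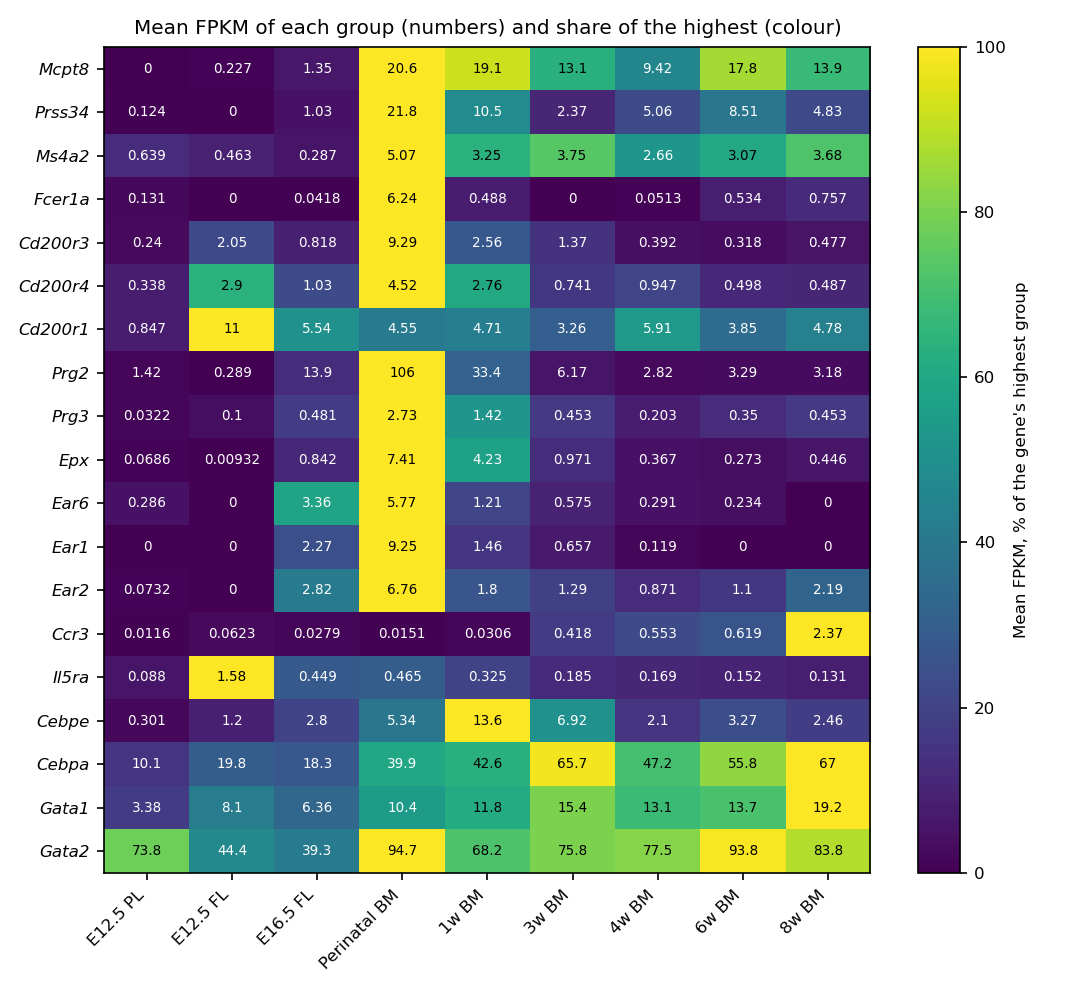
Mean FPKM of 19 genes (down the page) in the 9 groups (across), printed in each cell and coloured as a percentage of the highest group of that gene, with yellow for the highest. Prg2, Epx, Prg3, Ear1, Cd200r3 and Fcer1a are yellow in Perinatal BM alone, whereas Ccr3 is highest in 8w BM at 2.37 FPKM, Cebpe in 1w BM at 13.6 FPKM and Il5ra in E12.5 FL at 1.58 FPKM.

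Over the 27 libraries, which share their groups and are not independent, the log2 levels of the members correlated with each other to very different degrees. Pearson's r was 0.905 between Mcpt8 and Prss34, 0.884 between Mcpt8 and Ms4a2, 0.935 between Prg2 and Epx, and 0.808 between Prg2 and Ear6. It was 0.134 between Mcpt8 and Ear6 and 0.284 between Mcpt8 and Cd200r3. Over the 18 BM libraries alone these values lay closer together for Mcpt8, at 0.624 with Prss34, 0.519 with Ms4a2, 0.518 with Cd200r3 and 0.406 with Ear6, and were 0.967 between Prg2 and Epx and 0.861 between Prg2 and Ear6. Genes most like each member were ranked among the other tested genes, leaving out those with provisional symbols such as Gm or Rik numbers. Those most like Mcpt8 were Mfsd10, Fbp1 and Fcgr2b (r = 0.956, 0.951 and 0.949), those most like Prss34 were Inpp5k, Uvssa and Klhl35 (r = 0.909, 0.894 and 0.891), and those most like Ms4a2 were Nin, Ank and Cpt1a (r = 0.870, 0.867 and 0.866). Cd200r3 was most like Cd200r4, Mcpt4 and Hdc (r = 0.895, 0.866 and 0.862). Prg2 was most like Ofd1, S100a9 and S100a8 (r = 0.922, 0.912 and 0.898), Epx most like Prg3, Pygl and F10 (r = 0.922, 0.899 and 0.892), and Ear6 most like Lcn2, Ear1 and Stfa2l1 (r = 0.856, 0.855 and 0.808). Over the 18 BM libraries alone, 1 of the 3 genes remained for Epx and for Ear6 and 0 for the other 5 members.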

How the data were processed

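Values were FPKM computed by the authors and deposited as 1 table of 27 columns, all of which were matched to a library by title (0 columns were left unmatched). Per the submitters' processing notes, the tools were STAR 2.7, HTSeq 0.6.1p1, Trim Galore and FastQC, and the build was GRCm38. The program behind the FPKM, its annotation and any further scaling: not given in the sources used here. Whole reads could not be recovered from the values, so the depth is unknown and a value of 0 can be a failed estimate.

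FPKM were transformed to log2(FPKM + 1). Genes that reached 1 FPKM in 3 or more libraries, 13350 in all, entered the test in limma 3.58.1 (R 4.3.3; a mean for each of the 9 groups, all 27 libraries, moderated variances with a trend). P-values were adjusted over all genes tested within a comparison (Benjamini-Hochberg, threshold 0.05), and every adjusted p in the text is from this test or a named alternative of it. Mcpt8 and Prss34 passed the filter in 20 libraries each, of BM and E16.5 FL, Epx and Ear6 in 8 and 7 libraries, of E16.5 FL, Perinatal BM, 1w BM and 3w BM, Ms4a2 in the 18 BM libraries and Cd200r3 in 12, so differences between groups with and without these libraries are partly set by the filter. The calling was tested on simulated data, and Python 3.11.15 with numpy 2.4.6, pandas 2.3.3 and matplotlib 3.10.9 was used for levels, promoters and figures.

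The 7 genes and all gene lists were chosen with earlier results of these data known. The rule for further named genes was the 3 genes most like each member, the 4 genes of each list with the highest mean, and every gene of a list where 5 or fewer were called. It was kept for the first; markers of other cell types are in part given by counts and sums alone. Prg3, Ear1, Fcer1a, Cd200r4, Ccr3, Il5ra, Cebpe, Gata1 and Cebpa were given values in further sentences after their values were seen. Alternatives tried: no filter or one at 5 FPKM, a pseudocount of 0.1, equal sums for all libraries, median-of-ratios scaling, a fit of the 6 libraries compared, a fit without E12.5 PL, a block for the replicate number, and each library left out in turn.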

Additional observations from a re-analysis of the deposited data

How the results depend on the processing

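The counts of members called in 1w BM and 8w BM against E12.5 FL, in 3w BM against 1w BM and in 8w BM against 1w BM stayed within 1.5 times under all alternatives run. In E12.5 FL against E12.5 PL, 2 members were called higher and 1 lower with a pseudocount of 0.1 (Mcpt8 at 1.38 and Prg2 at -1.83), and 1 lower in the fit of the 6 libraries compared. In 4w BM against 3w BM, 0 members were called higher with a pseudocount of 0.1 and in the 6-library fit, and 0 lower with those, with no filter, with equal library sums and without E12.5 PL. In 6w BM against 4w BM, 0 were called higher with a pseudocount of 0.1, with no filter and in the 6-library fit, and in 8w BM against 6w BM 0 were called lower with those, with equal library sums and without E12.5 PL. With each library left out in turn, the counts ranged from 0 to 1 in 4w BM against 3w BM (higher and lower), from 0 to 2 in 6w BM against 4w BM (higher) and from 0 to 1 in 8w BM against 6w BM (lower). The cause was not tested.

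Libraries with the same replicate number did not deviate together (residual correlations between -0.21 and 0.19, and 0 of 8 comparisons with every pair over 0.1). A block for the number lowered the members called lower in 4w BM against 3w BM to 0 and changed no other call.

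Some members that were not called changed sign. In 6w BM against 4w BM, Ear6 gave 0.34 with a pseudocount of 0.1 and 0.010 with equal sums. With each library left out in turn, it ranged there from -0.17 to 0.29, from -0.78 to 0.0022 in 3w BM against 1w BM, and from -0.56 to 0.087 in 4w BM against 3w BM. Ms4a2 ranged from -0.065 to 0.33 in 3w BM against 1w BM, from -0.087 to 0.42 in 8w BM against 6w BM, and from -0.14 to 0.36 in 8w BM against 1w BM. Cd200r3 ranged from -0.23 to 0.027 in 6w BM against 4w BM and from -0.085 to 0.33 in 8w BM against 6w BM, where Prg2 ranged from -0.36 to 0.19.

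Scaling to equal sums moved the median difference of all genes in E12.5 FL against E12.5 PL to 0.17, against -0.06 as deposited, and the Cd200r3 rise kept its call. The 6-library fits called fewer genes in all, 46 higher and 58 lower in 4w BM against 3w BM (630 and 609 with all libraries), 8 and 2 in 6w BM against 4w BM (346 and 180), and 2 and 4 in 8w BM against 6w BM (396 and 696). With single libraries left out the lowest counts were 408 and 327 in 3w BM against 1w BM (759 and 635 with all), and in these steps 196 and 167, 151 and 74, and 133 and 345. With equal sums, the genes called higher and lower numbered 5982 and 4431 in E12.5 FL against E12.5 PL (4432 and 5479 as deposited), 444 and 616 in 3w BM against 1w BM, 673 and 229 in 4w BM against 3w BM, 174 and 157 in 6w BM against 4w BM, 486 and 421 in 8w BM against 6w BM, and 1421 and 778 in 8w BM against 1w BM (1370 and 1120 as deposited). Of the 3 genes most like each member, the 18 BM libraries alone kept 0 for Mcpt8, Prss34, Ms4a2, Cd200r3 and Prg2, and 1 for Epx and Ear6. Levels near 0 in fetal libraries are limited by an unknown depth.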
